A study of Mus musculus with 24 samples.

Results

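Complement is described here through 9 genes of the mouse pancreas transcriptome: C1qa, C1qb, C1qc, C4b, C2, C3, Cfb, Serping1 and C3ar1. They were found by symbol, 1 entry each, among the 36806 genes of the authors' table, and all 9 passed the filter on low values, which asked for 3 or more of the 24 libraries with 1 FPKM or above. Polyadenylated RNA was taken from the whole pancreas of C57BL mice that carried 2 intact copies of Nr5a2 (Nr5a2 +/+, called WT) or 1 (Nr5a2 +/-, called HET), Nr5a2 being a nuclear receptor gene active in acinar cells. Mice of both genotypes had saline, or caerulein, a cholecystokinin analog that sets off a mild acute pancreatitis, as 7 intraperitoneal doses of 50 ug/kg at hourly intervals. Pancreas was collected 8, 24 or 48 h after the first caerulein dose, which with saline gives 8 groups of 3 animals. The labels do not give the age of the mice or the part of Nr5a2 that the altered allele lacks, and the allele was not restricted to 1 cell type by anything the labels state.

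Complement is a cascade of plasma and tissue proteins that tags cells and debris for uptake, draws in leukocytes and can perforate membranes. In the classical pathway C1q, built of chains from C1qa, C1qb and C1qc, binds its target and activates C1r and C1s. These cleave C4 and C2 to form the enzyme that splits C3. Factor B, the product of Cfb, forms the corresponding enzyme of the alternative pathway, the C1 inhibitor encoded by Serping1 blocks C1r and C1s, and the receptor encoded by C3ar1 binds the C3a fragment on leukocytes. The liver makes most of the C3, C4, C2 and factor B of plasma, whereas C1q comes mainly from macrophages, and many tissues make complement locally during inflammation.

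The authors' unit, inferred to be FPKM, is a fragment count divided by transcript length and library size, which allows levels of different genes to be compared. How library size was set is not given. Sequencing depth is unknown, so no counting error can be given. FPKM summed to between 217205 and 1400108 per library. Differences are between group means of log2(FPKM + 1), given ± their standard error, a scale that understates changes of genes at a few FPKM. They were tested with limma over all genes, two-sided, and called at an adjusted p under 0.05. Libraries of saline and 24 h were made with an earlier preparation guide and those of 8 and 48 h with a v2 guide, while WT saline replicate 3 is in neither list of libraries. Comparisons between genotypes, of 24 h with saline and of 48 h with 8 h therefore cross no known change of guide, although those that use WT saline hold 1 library whose guide is unknown. In 8 h or 48 h against saline, guide and time cannot be told apart. Nothing says how the animals were housed or related. The p-values set each difference against the spread between animals within groups. That spread was pooled over the 8 groups of 3 and drawn toward that of genes at a similar level.

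Nr5a2 itself was at 9.26 to 12.6 FPKM in WT saline and 8.01 to 9.09 in HET saline. It did not pass the test in any single condition, and the genotype difference averaged over the 4 conditions was −0.29 ± 0.09 (adjusted p = 0.0367). The summed FPKM of 7 acinar cell markers ran from 212400 to 412900 in the saline libraries and was lowest in HET at 48 h, from 460.8 to 10110. As bulk RNA was measured, more cells of a type and more RNA per cell cannot be told apart. Several libraries stood apart in most members. HET saline replicate 2 was high, and WT 24 h replicate 3 and WT 48 h replicate 1 were low. Calls lost without them, and calls between genotypes gained without them, are given with and without them. Calls over time gained without a library are given as counts only.

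C1qb, C1qc and C1qa follow each other on chromosome 4, and Cfb and C2 are neighbours on chromosome 17, all on the minus strand. C4b and C3 are also on chromosome 17, C3ar1 is on chromosome 6 and Serping1 on chromosome 2. RefSeq promoter windows were at hand for 4 of the 9 members, and 3 of them are shown: those of C1qb and C1qc because these genes moved together, and that of C3 because it holds the letters of an NR5A2 site. Each is read 5' to 3' along the minus strand of GRCm38.p6, from the 250 bases before the start site. That of C1qc stops short where another annotated transcript begins. Capitals mark letters of NF-kB in C1qb, of PU.1 in C1qc and of NR5A2 in C3.
C1qb, chr4:136886201-136886450: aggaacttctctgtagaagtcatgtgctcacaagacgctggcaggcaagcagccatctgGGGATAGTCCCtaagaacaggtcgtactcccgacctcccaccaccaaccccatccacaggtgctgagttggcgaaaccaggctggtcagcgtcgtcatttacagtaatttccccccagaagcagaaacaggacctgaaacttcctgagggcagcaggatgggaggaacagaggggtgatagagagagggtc
C1qc, chr4:136893066-136893164: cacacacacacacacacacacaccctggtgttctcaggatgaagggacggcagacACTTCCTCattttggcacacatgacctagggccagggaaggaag
C3, chr17:57228137-57228386: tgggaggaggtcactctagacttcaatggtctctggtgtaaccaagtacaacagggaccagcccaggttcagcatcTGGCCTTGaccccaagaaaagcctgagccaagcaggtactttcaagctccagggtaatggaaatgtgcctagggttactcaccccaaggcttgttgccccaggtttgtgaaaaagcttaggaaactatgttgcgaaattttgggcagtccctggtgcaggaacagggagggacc
The motifs were searched on both strands as the letters CAAGGNCA (NR5A2), GAGGAAGT (PU.1), TTCNNNGAA (STAT), GGG and CC with 5 bases of any kind between them (NF-kB), and GAAA repeated after 2 bases of any kind (interferon response). NR5A2 letters stood in C3 alone of the 4 windows, at positions −174 to −167 from the start on the reverse strand, and in 5.53% of 32851 mouse promoter windows of the same length. PU.1 letters stood in C1qc alone, at −195 to −188, and in 2.44% of all windows. NF-kB letters were in all 4 windows, but also in 45.8% of all windows. In C1qc they lay between −41 and −31, past the end of the stretch shown. In C1qb the same stretch at −191 to −181 matched on both strands. STAT letters (7.02% of all windows) and interferon-response letters (2.98%) were not found in these 4 windows. These are matches of letters in a window and were not measured as binding.

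Across the 24 libraries C3 had the highest median of the 9 genes, 83.5 FPKM, and C3ar1 the lowest, 2.66. C1qb reached 232 FPKM and C1qa 201, both in HET 48 h replicate 2. The ratio of the highest to the lowest library was 23.8 for C1qb, 21.6 for C3ar1 and 21.4 for Cfb, against 4.45 for Serping1. Among genes above 0 in at least 1 library, the mean of each member stood at or above the 77.8th percentile.

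**Figure D1:**
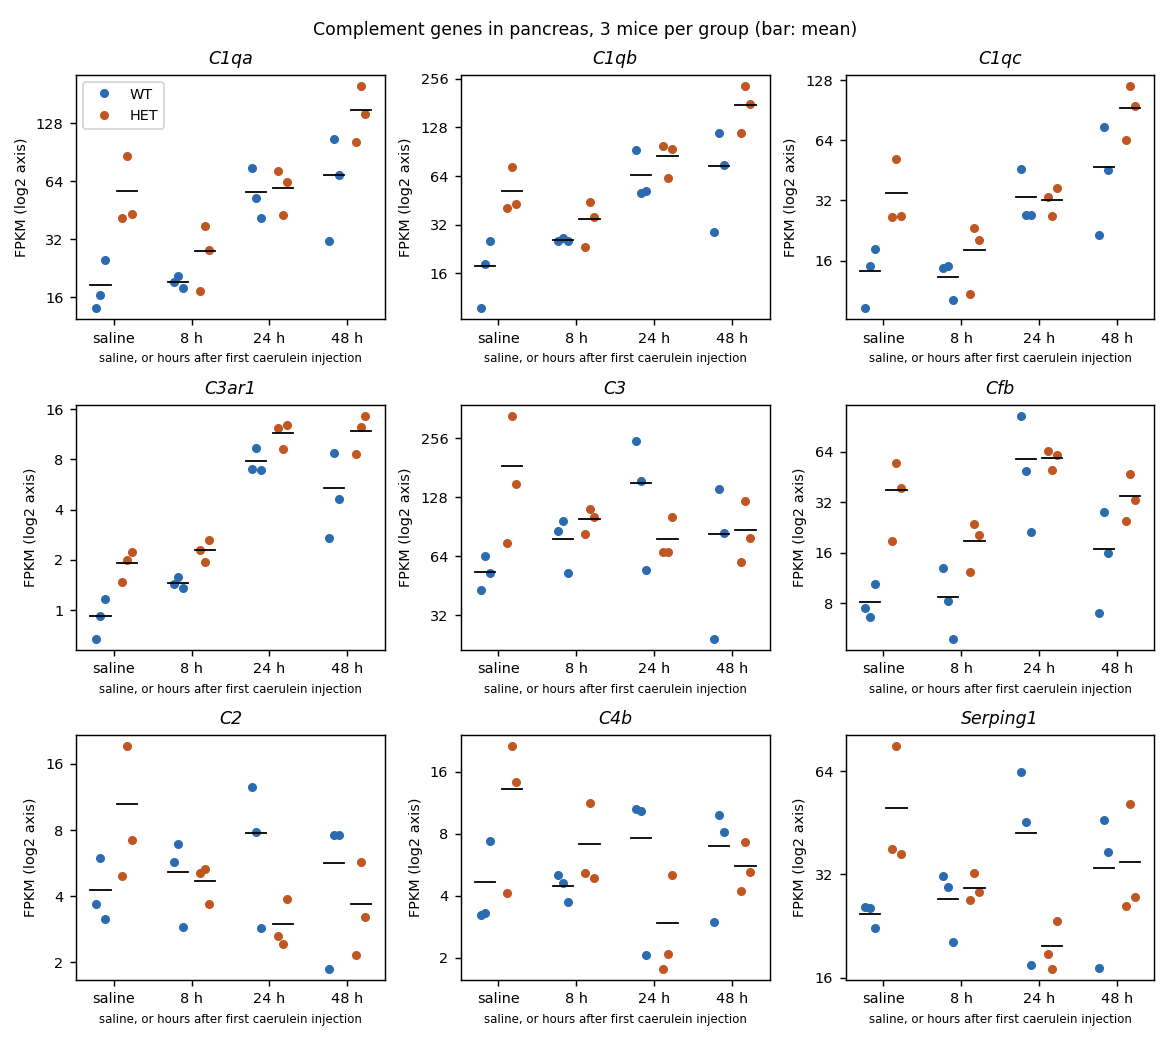
FPKM of the 9 complement genes on log2 axes in each of the 24 libraries (WT blue, HET orange; saline, 8, 24 or 48 h), with bars at the means of 3 mice. The 3 C1q genes and C3ar1 have their highest mean in HET at 48 h, whereas C2, C3, C4b and Serping1 have theirs in HET saline.

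The 3 C1q genes rose from saline to 24 h in WT and from 8 to 48 h in both genotypes, and were higher in HET than in WT when the 4 conditions were averaged. C1qa was at 14, 16.5 and 25.1 FPKM in WT saline, 19.1, 20.6 and 17.8 at 8 h, 74.8, 52.3 and 41.4 at 24 h, and 31.5, 106 and 68.8 at 48 h. In HET it was at 41.2, 86.5 and 43.2 FPKM in saline, 17.2, 37.7 and 28.2 at 8 h, 72.0, 42.7 and 63.4 at 24 h, and 103, 201 and 144 at 48 h. WT libraries were thus low in saline and at 8 h and high at 24 and 48 h, while HET libraries were already above all WT libraries in saline and overlapped with them at 8, 24 and 48 h. C1qb, the B chain, had 9.74, 18.3 and 25.5 FPKM in WT saline against 40.4, 73.2 and 42.8 in HET saline, and 28.8, 118 and 74.5 in WT at 48 h against 119, 232 and 178 in HET. Its HET and WT libraries did not overlap in saline or, narrowly, at 48 h, where 17.8% of all genes had every HET library above every WT library. C1qc, the C chain, ran from 9.24 to 18.2 FPKM in WT saline, from 26.3 to 51.6 in HET saline, from 21.4 to 74.6 in WT at 48 h and from 64.1 to 120 in HET at 48 h.

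In WT, C1qa rose by 1.55 ± 0.39 (log2) from saline to 24 h (adjusted p = 0.00425), C1qb by 1.84 ± 0.43 (adjusted p = 0.00209) and C1qc by 1.19 ± 0.39 (adjusted p = 0.0212). The C1qc call was lost without WT saline replicate 1 (adjusted p = 0.103) or WT 24 h replicate 1 (adjusted p = 0.105). The 3 genes were among 5 of the 9 members called higher, against 20.5% of all genes, and in the same 5 every 24 h library lay above every saline library (22.5% of all genes). In HET the corresponding differences were 0.11 ± 0.39, 0.71 ± 0.43 and −0.05 ± 0.39, none of which passed the test. From 8 to 48 h, C1qa rose by 1.63 ± 0.39 in WT and by 2.40 ± 0.39 in HET. C1qb rose by 1.27 ± 0.43 and 2.31 ± 0.43, and C1qc by 1.60 ± 0.39 and 2.32 ± 0.39. The highest adjusted p of these 6 results was 0.0179, for C1qb in WT, a call lost without WT 48 h replicate 2 (adjusted p = 0.125) or 3 (adjusted p = 0.0611). With C3ar1 these made 4 of 9 members called higher in each genotype, against 22.5% of all genes in WT and 23.4% in HET. The difference between the genotypes in these changes did not pass the test for any of the 3 C1q genes, either for 24 h against saline (lowest adjusted p = 0.173, C1qa) or for 48 h against 8 h (lowest adjusted p = 0.523, C1qb).

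Averaged over the 4 conditions, C1qa was higher in HET by 0.82 ± 0.20 (log2, 1.76-fold, adjusted p = 0.00663), C1qb by 0.93 ± 0.21 (1.91-fold, adjusted p = 0.00486) and C1qc by 0.67 ± 0.19 (1.59-fold, adjusted p = 0.0214). Together with Cfb and C3ar1 these made 5 of 9 members called higher and 0 lower, where 10.2% of all genes were called higher and 8.4% lower. All 5 kept their call in each of the 24 fits without 1 library and under each of the 8 other settings. Condition by condition the C1q differences were uneven. C1qa was higher in saline by 1.52 ± 0.39 (adjusted p = 0.0464), the 1 member called of 9, against 1.15% of all genes. That call was lost in 5 of 6 fits without 1 library, all but the one without HET saline replicate 1, and had an adjusted p of 0.165 without HET saline replicate 2. In 7 of the 9 members, all but C2 and C4b, every HET saline library lay above every WT saline library, as in 8% of all genes. At 48 h C1qa was higher by 1.22 ± 0.39 (adjusted p = 0.0495) and C1qb by 1.41 ± 0.43 (adjusted p = 0.0364), while C1qc differed by 1.09 ± 0.39 without passing (adjusted p = 0.0753). With C3ar1, 3 of 9 members were called higher at 48 h, against 5.84% of all genes. Both C1q calls were lost without WT 48 h replicate 1 or 3 or HET 48 h replicate 2 or 3, with the highest adjusted p, 0.309 for C1qa and 0.254 for C1qb, without WT 48 h replicate 1. C1qc was called without WT 48 h replicate 2 (adjusted p = 0.0133) or HET 48 h replicate 1 (adjusted p = 0.0483).

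**Figure D2:**
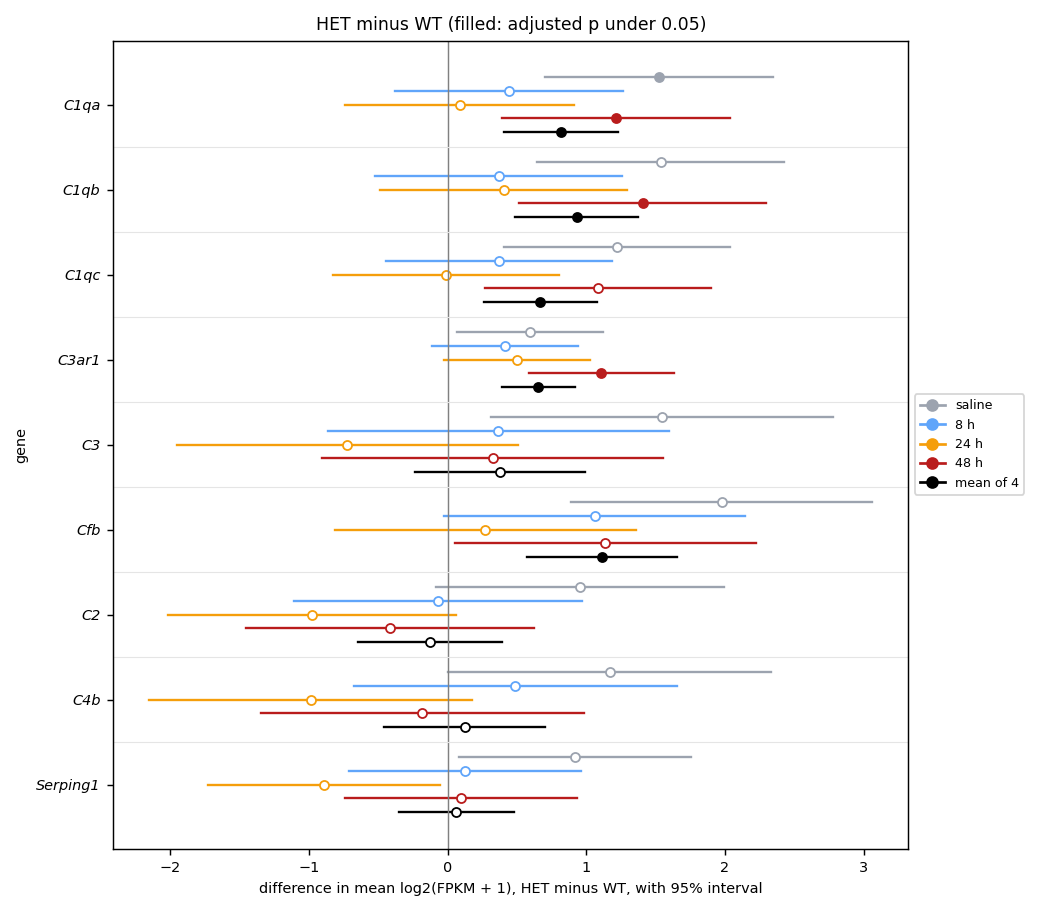
HET minus WT difference in mean log2(FPKM + 1) of each complement gene in saline, at 8, 24 and 48 h and averaged over the 4 conditions, with 95% intervals. Filled points passed an adjusted p of 0.05. The averaged difference lies above 0 for C1qa, C1qb, C1qc, C3ar1 and Cfb, and its interval includes 0 for C2, C3, C4b and Serping1.

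At 8 and 24 h no member was called between the genotypes by limma. At 8 h 0 members were also under an unadjusted p of 0.05 (5.76% of all genes were), and 0.171% of all genes were called higher and 0.0467% lower. At 24 h the figures were 1 member, Serping1, and 20.7% of all genes, with 3.5% of all genes called higher and 3% lower. The Serping1 difference was −0.89 ± 0.40 (adjusted p = 0.210), and it passed without WT 24 h replicate 3 (adjusted p = 0.0278). The C1qa difference at 24 h was 0.09 ± 0.39, with a 95% interval of −0.74 to 0.91.

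Markers of macrophages, the main source of C1q, are given here beside the C1q genes. The summed FPKM of 14 macrophage markers ran from 67.1 to 165 in WT saline and from 198 to 436 in HET saline, from 140 to 252 and 346 to 445 at 8 h, from 558 to 921 and 830 to 1309 at 24 h, and from 256 to 839 and 776 to 1331 at 48 h. No marker of the list was at 0 in all 3 libraries of any group. Averaged over conditions 13 of the 14 were higher in HET (median difference 0.86), against 10.2% of all genes. Among the 13 were Cd68 (0.87 ± 0.17), Csf1r (0.67 ± 0.17) and Cd163 (0.54 ± 0.18). At 48 h 8 of the 14 were higher (5.84% of all genes), and in saline 1 (1.15%). From saline to 24 h 12 of the 14 rose in each genotype, against 20.5% of all genes in WT and 23.9% in HET. The median in HET was 1.91, and no C1q gene passed the test there. With libraries scaled without enzyme and Reg genes, C1qa (1.23) and C1qb (1.83) were called higher there, as were 62.6% of all genes. From saline to 8 h in HET, 2 of the 14 rose and 1 fell, below the shares of all genes (30.7% and 24.5%), and C1qa was called lower. Other lists moved with the averaged genotype difference as well. Of the markers tested, 3 of 8 for neutrophils were higher (median 0.59), and 3 of 5 for duct cells were higher and 1 lower (median 0.51). For acinar cells 7 of 7 were lower (median −1.48). Of all genes 10.2% were called higher and 8.4% lower. The part of any of these cell types in the differences of C1q, Cfb or C3ar1 was not tested.

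C3ar1, the C3a receptor, rose in both genotypes and was higher in HET on average. It was at 0.676, 0.925 and 1.16 FPKM in WT saline, 1.43, 1.59 and 1.36 at 8 h, 7.04, 9.42 and 6.9 at 24 h, and 2.69, 8.76 and 4.63 at 48 h. In HET it was at 1.48, 2.0 and 2.23 FPKM in saline, 2.3, 1.95 and 2.62 at 8 h, 12.3, 9.25 and 12.8 at 24 h, and 8.68, 12.5 and 14.6 at 48 h. HET libraries lay above all WT libraries in saline and at 8 h (8.75% of all genes did so at 8 h) and overlapped narrowly at 24 and 48 h. From saline to 24 h it rose by 2.19 ± 0.25 in WT and by 2.10 ± 0.25 in HET (adjusted p = 2.68e-06 and 2.39e-06), with a difference between those changes of −0.09 ± 0.35 (95% interval −0.83 to 0.65). From 8 to 48 h it rose by 1.26 ± 0.25 in WT and 1.95 ± 0.25 in HET. C3ar1 was higher in HET by 1.11 ± 0.25 at 48 h (adjusted p = 0.00768) and by 0.66 ± 0.13 over the 4 conditions (adjusted p = 0.00134). The 48 h call was lost without WT 48 h replicate 1 (adjusted p = 0.0671) or HET 48 h replicate 3 (adjusted p = 0.0619). Since several of its values were near or below 1 FPKM, the saline and 8 h differences are understated on this scale.

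Cfb, which supplies factor B, rose in WT and was higher in HET on average. It was at 7.48, 6.56 and 10.4 FPKM in WT saline and 18.8, 55.2 and 39.1 in HET saline, with no overlap. At 8 h WT mice had 13, 8.27 and 4.91 FPKM and HET mice 12.2, 23.7 and 20.4. WT mice had 105, 48.9 and 21.2 FPKM at 24 h and 7.0, 27.8 and 16 at 48 h, and HET mice 65.0, 49.6 and 61.1 at 24 h and 24.7, 47.0 and 32.8 at 48 h. WT at 24 h thus spanned the whole HET range, and the highest mean stood at 24 h in both genotypes (58.4 ± 42.7 in WT and 58.6 ± 8.0 FPKM in HET, SD, n = 3). In WT Cfb rose by 2.44 ± 0.52 from saline to 24 h (5.44-fold, adjusted p = 0.00112). In HET, which started higher in FPKM, the difference was 0.74 ± 0.52 (adjusted p = 0.265), and the genotypes' changes did not differ past the threshold (−1.70 ± 0.73, adjusted p = 0.227). Over the 4 conditions Cfb was higher in HET by 1.11 ± 0.26 (2.16-fold, adjusted p = 0.00557). The difference in saline alone, 1.98 ± 0.52, missed the threshold narrowly (adjusted p = 0.0505) and passed without HET saline replicate 1 (adjusted p = 0.0293). Without HET saline replicate 2 it was 1.65 (adjusted p = 0.162).

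C3, the protein on which the pathways converge, did not pass the test in any of the 15 comparisons. It was at 43.0, 64.0 and 52.3 FPKM in WT saline and 75.0, 332 and 149 in HET saline, so that HET lay above WT with a wide spread. At 24 h WT held 246, 155 and 54.2 FPKM and HET 67.2, 67.0 and 101, and at 48 h WT held 24.4, 141 and 83.7 and HET 59.9, 122 and 79.2. Here the genotypes overlapped. The saline difference was 1.55 ± 0.59 (adjusted p = 0.153), or 0.999 without HET saline replicate 2 (adjusted p = 0.419), and the mean difference was 0.38 ± 0.29, with a 95% interval of −0.24 to 0.99. From saline to 24 h C3 differed by 1.27 ± 0.59 in WT and −1.0 ± 0.59 in HET (adjusted p = 0.0950 and 0.179). With libraries scaled without digestive enzyme and Reg genes these became 2.23 in WT, which passed (adjusted p = 0.0162), and 0.12 in HET, which turned its direction and did not pass (adjusted p = 0.901). Relative to the median of all genes on that scale they stood at 1.49 and −0.75.

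C2, C4b and Serping1 formed a second pattern, with their highest mean in HET saline and their lowest in HET at 24 h. C2, the enzyme part of the classical pathway's C3-splitting complex, was at 4.96, 19.3 and 7.19 FPKM in HET saline and 2.64, 2.42 and 3.87 at 24 h, without overlap. Serping1 was at 37.9, 75.7 and 36.6 FPKM in HET saline and 18.8, 17 and 23.4 at 24 h, again without overlap. C4b, the mouse C4 gene, was at 4.14, 21.3 and 14.2 FPKM in HET saline and 1.77, 2.08 and 5.04 at 24 h, where 1 library reached into the saline range. From saline to 24 h in HET, C2 fell by 1.34 on the log2 scale (SE 0.50, adjusted p = 0.0346), C4b by 1.69 (SE 0.55, adjusted p = 0.0189) and Serping1 by 1.23 (SE 0.40, adjusted p = 0.0176). These were 3 of 9 members called lower, against 19.8% of all genes, while C3ar1 was the 1 called higher (23.9% of all genes). In 21.5% of all genes every HET 24 h library lay below every HET saline library. Without HET saline replicate 2 none of the 3 was called (adjusted p = 0.193, 0.0996 and 0.0983), nor without HET 24 h replicate 2 (0.0939, 0.0621 and 0.0582). C2 and C4b were also lost without HET 24 h replicate 1 (0.0850 and 0.0731), and C4b without HET saline replicate 3 (0.0622).

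In WT the same 3 genes went the other way between saline and 24 h without passing the test. C2 was at 3.7, 5.99 and 3.15 FPKM in WT saline and 12.5, 7.82 and 2.88 at 24 h, and its difference was 0.59 ± 0.50. Serping1 was at 25.7, 25.6 and 22.3 in saline and 63.5, 45.5 and 17.4 at 24 h, a difference of 0.58 ± 0.40. C4b was at 3.24, 3.31 and 7.37 in saline and 10.6, 10.3 and 2.06 at 24 h, a difference of 0.46 ± 0.55. In all 3 genes WT 24 h replicate 3 lay below the other 2 libraries and below the lowest saline library.

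The change to 24 h was compared between the genotypes directly, as HET change minus WT change. It was −1.81 ± 0.57 for Serping1 (adjusted p = 0.0932), −1.93 ± 0.70 for C2 (adjusted p = 0.145), −2.16 ± 0.78 for C4b (adjusted p = 0.145) and −2.27 ± 0.83 for C3 (adjusted p = 0.146). No member was called by limma, against 2.3% of all genes in either direction, although 7 of 9 members, all but C1qb and C3ar1, were under an unadjusted p of 0.05 (17.8% of all genes). Without WT 24 h replicate 3 the difference passed for 4 members, Serping1 (adjusted p = 0.0131), C4b (0.0340), C3 (0.0440) and C2 (0.0461). Without HET saline replicate 1 it passed for C4b (0.0450), and without HET saline replicate 2 for none. For 48 h against 8 h, 0 members were called or under an unadjusted p of 0.05, against 0.7% of all genes called in either direction.

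**Figure D3:**
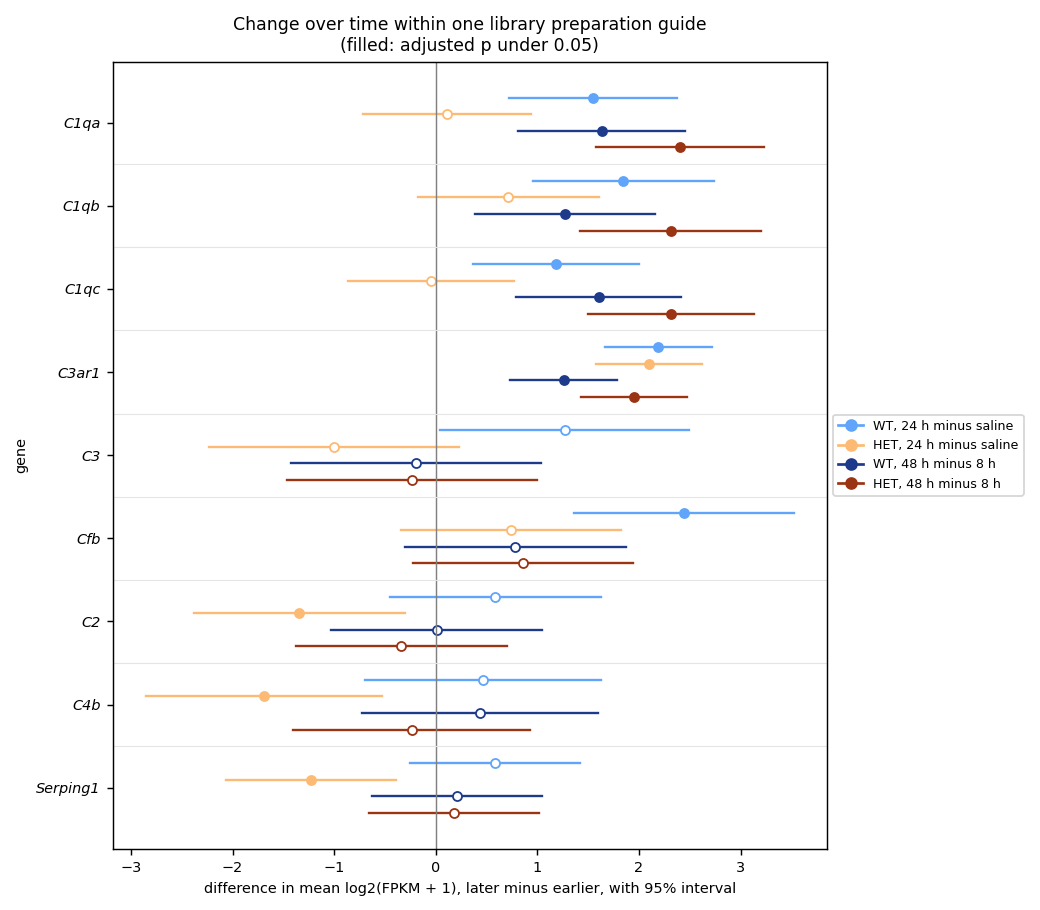
Change over time of each complement gene within 1 library preparation guide, as the difference in mean log2(FPKM + 1) with its 95% interval, for 24 h minus saline and 48 h minus 8 h in each genotype. Filled points passed an adjusted p of 0.05. The points of the C1q genes and C3ar1 lie above 0 in 3 or 4 of the 4 comparisons, and C2, C4b and Serping1 lie below 0 in HET from saline to 24 h.

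Across the change of guide, 0 members were called in WT at 8 h against saline by limma, and 0 were under an unadjusted p of 0.05, where 28.2% of all genes were called higher and 22.8% lower. In HET, C1qa fell by 1.0 on the log2 scale (SE 0.39, adjusted p = 0.0383), the 1 member called lower, against 24.5% of all genes. That call was lost without HET saline replicate 2 (adjusted p = 0.198), HET 8 h replicate 1 (0.186) or HET 8 h replicate 3 (0.0626). At 48 h against saline the 3 C1q genes and C3ar1 were higher in both genotypes, 4 of 9 members, against 11.8% of all genes in WT and 24.2% in HET. C1qc in WT lost that call without WT 48 h replicate 2 (adjusted p = 0.0592).

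From saline to 24 h, markers of some other cell types also moved differently in WT and HET. The adipocyte marker sum had its highest mean in HET saline (235 FPKM), as C2, C4b and Serping1 did. Its lowest mean was in HET at 48 h (35.0 FPKM, against 58.9 in HET at 24 h). The B cell marker sum had its lowest mean in HET at 24 h (4.59 FPKM), as those 3 genes did, and its highest in WT at 24 h (27.1 FPKM). The sum of fibroblast and stellate markers had its highest mean in HET at 48 h (1369 FPKM, against 582 in HET saline). The summed FPKM of 7 adipocyte markers was 41.2 to 67.7 in WT saline, 162 to 319 in HET saline, 94.6 to 282 in WT at 24 h and 36.1 to 91.1 in HET at 24 h, lowest of the WT 24 h libraries in replicate 3 and highest of all libraries in HET saline replicate 2. From saline to 24 h, 5 of the 7 fell in HET and 3 rose in WT, against 19.8% and 20.5% of all genes. That of 6 B cell markers was 54.7, 24.3 and 2.23 in the WT 24 h libraries and 7.77, 32.1 and 19.0 in HET saline, and 0 of the 5 tested passed in either comparison. Of 11 fibroblast and stellate cell markers, 10 rose in WT to 24 h (20.5% of all genes). In HET 1 rose and 2 fell (23.9% and 19.8% of all genes). The difference between the genotypes' changes to 24 h was below 0 and called for 2 of 7 adipocyte and 3 of 11 fibroblast and stellate markers. It was so for 1.23% of all genes. Liver-type markers were near 0, with 8 hepatocyte genes, Alb and Apoa1 among them, summing to between 0.203 and 6.92 FPKM in every library. The part of adipose, lymphoid or stromal tissue in these results was not tested.

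**Figure D4:**
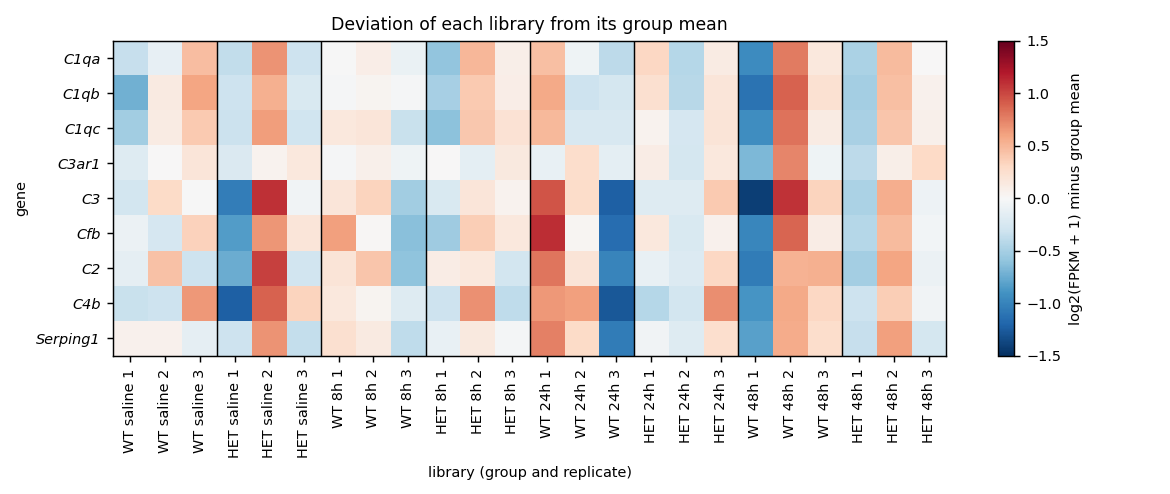
Deviation of each of the 24 libraries from its group mean in log2(FPKM + 1), with genes in rows and libraries in columns and groups separated by lines. WT 24 h replicate 3 and WT 48 h replicate 1 are low and HET saline replicate 2 and WT 48 h replicate 2 are high in most genes.

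The members fell into sets when their levels were correlated, given here as a description over 24 libraries that share groups and scaling. Pairs among the 3 C1q genes had r between 0.953 and 0.985. C2 and Serping1 had r = 0.901 and C2 and C3 r = 0.868, whereas C2 and C3ar1 had r = −0.134 and C1qb and C2 r = 0.111. Within groups, on deviations from the group means, all 36 pairs were positively correlated, from 0.476 for C3ar1 and Serping1 to 0.961 for C1qb and C1qc. C2 and C3 reached 0.945. The genes outside the 9 with the most similar levels, of 10921 compared, were Ly86, Folr2 and Cpxm1 for the mean of the C1q genes (r = 0.959, 0.959 and 0.958). For C3ar1 they were Lgmn (r = 0.989), Slc37a2 (0.977) and Cerk (0.972), for Cfb Arhgdib (0.937), Psmb8 (0.931) and Rac2 (0.927), and for C3 Trf (0.910), Ildr2 (0.897) and Lipe (0.878). C1ra, which encodes the C1r protease, came first for Serping1 (r = 0.960), C2 (0.892) and C4b (0.887). Next came Fbln1 (0.892) and Gm16567 (0.886) for Serping1, Enpp2 (0.879) and Jchain (0.853) for C2, and Bank1 (0.874) and Fcna (0.863) for C4b. On deviations from the group means, r of these similar genes ran from 0.821 (Slc37a2 with C3ar1) to 0.952 (C1ra with Serping1).

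Ratios between members within a library, chosen after their values were seen and not tested, do not depend on how libraries were scaled. C1qb stood at 0.696 to 1.48 times C1qa and C1qc at 0.464 to 0.909 times C1qa over all 24 libraries, although C1qa itself varied 14.4-fold. Cfb over C2 was 2.14 ± 1.11 in WT saline, 4.03 ± 1.31 in HET saline, 7.34 ± 1.07 in WT at 24 h and 20.3 ± 4.42 in HET at 24 h (SD, n = 3 each). The lowest HET 24 h library, at 15.8, exceeded the highest WT 24 h library, at 8.4. At 48 h the ratio was 3.18 ± 0.93 in WT and 9.97 ± 1.66 in HET, again without overlap. C3 over C1qa went from 3.01 ± 0.90 in WT saline and 3.04 ± 1.07 in HET saline to 1.11 ± 0.29 and 0.58 ± 0.03 at 48 h. Cfb and C2 both overlap the annotated gene Gm20547, and the division of reads between these neighbours is uncertain. C4b has a near-identical copy, C4a, whose group means were 0.05 to 0.57 FPKM, so that the division of reads between the 2 is uncertain too.

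**Figure D5:**
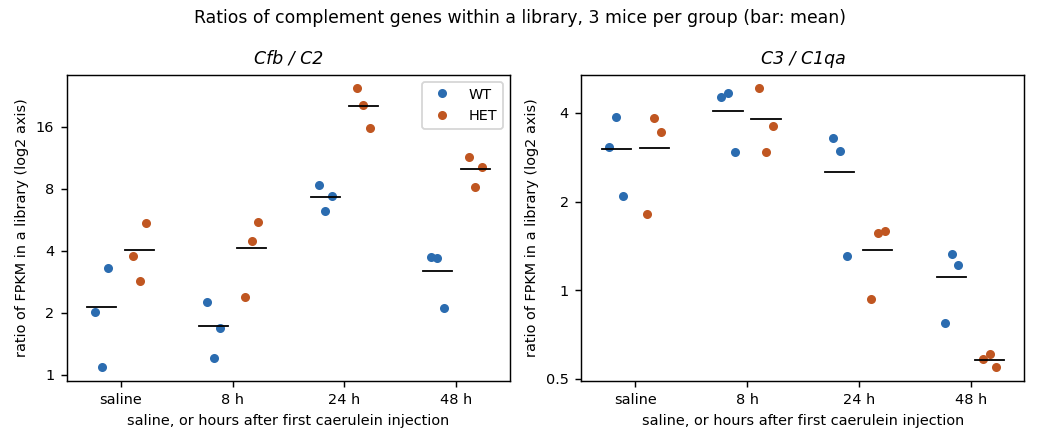
Ratio of Cfb to C2 and of C3 to C1qa in each library on log2 axes, with bars at the means of 3 mice (WT blue, HET orange). Cfb over C2 is highest in HET at 24 h, between 15.8 and 24.6, and C3 over C1qa is lowest in HET at 48 h, between 0.55 and 0.61.

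In the order of group means, HET 48 h came first for C1qb (176 FPKM), apart from HET 24 h (84.6), and from there to WT saline (17.9) every group overlapped with the next. C1qa had the same first and last groups, but its HET 48 h libraries overlapped with those of WT 48 h. Its only gap was between WT 24 h (56.2) and HET 8 h (27.7). C1qc ran from HET 48 h (92.9) to WT 8 h (13.3), with 1 gap, between HET 24 h (32.3) and HET 8 h (18.1). For C3ar1 the groups at 24 and 48 h (5.36 to 11.9) were separated from those at 8 h and saline (0.92 to 2.29), with a further gap between WT 8 h (1.46) and WT saline. Cfb ran from HET 24 h (58.6) to WT saline (8.15), and its only gap was between HET 48 h (34.8) and HET 8 h (18.8). For C2, C3, C4b and Serping1 no group was separated from its neighbour in the order.

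Of 46 other complement genes listed, 23 had enough signal to be tested in most comparisons. The liver-type terminal components Hc, C8a, C8b and C9 and the lectins Mbl1 and Mbl2 were among those at group means below 0.2 FPKM throughout. Averaged over conditions 6 of 22 tested were higher in HET, against 10.2% of all genes, and 2 lower, against 8.4%, with a median difference of 0.19 beside 0.01 for all genes. Those higher were the receptors C5ar1 (1.07 ± 0.18, adjusted p = 0.000510), Itgam (1.17 ± 0.30) and Itgb2 (0.91 ± 0.22), which form complement receptor 3, and Cd93 (0.45 ± 0.14), together with Cfp (1.01 ± 0.26), which encodes properdin, the stabiliser of the alternative pathway enzyme, and the regulator C4bp (0.30 ± 0.10). Those lower were Cd59a (−0.36 ± 0.12) and Cd59b (−0.63 ± 0.13, adjusted p = 0.00215), which encode inhibitors of the membrane attack complex. In single conditions Cd59b was lower in HET saline (−1.15 ± 0.26), Cfi lower at 24 h (−0.74 ± 0.17) and C5ar1 higher at 48 h (1.69 ± 0.36, adjusted p = 0.00537). From saline to 24 h, 12 of 23 rose and 3 fell in WT (20.5% and 18.7% of all genes), and 6 of 22 rose and 6 fell in HET (23.9% and 19.8% of all genes), the latter close to the shares over all genes. Among the latter, C1ra fell by 1.17 on the log2 scale and Fcna, a ficolin of the lectin pathway, by 2.13.

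The scaling of libraries bears on directions over time. The share of 41 digestive enzyme and Reg genes in a library's total differed between saline and caerulein. This share, and the total, left out genes whose zeros in a group were treated as missing. With saline the share lay between 47.4% (WT replicate 1) and 58.4% (WT replicate 3). After caerulein it lay between 2.83% (HET 48 h replicate 3) and 39.7% (WT 24 h replicate 3). Each library was then scaled to its total without these 41 genes and without genes that had a missing group. The median of all genes moved to 0.869 in HET and 0.736 in WT for 24 h against saline. For HET against WT at 48 h it moved to 0.404. Called genes then split into 8045 higher and 627 lower in HET at 24 h, in place of 3074 and 2548. On that scale C2, C4b and Serping1 were not called in HET at 24 h (adjusted p = 0.525, 0.307 and 0.832) and stood at −1.31, −1.69 and −1.0 relative to the median of all genes. Called higher there instead, beside C3ar1, were C1qa, C1qb and Cfb, with differences of 1.23, 1.83 and 1.84, which were 0.36, 0.96 and 0.98 relative to that median, where 62.6% of all genes were called higher. In WT at 24 h, 8 of 9 members were called higher on that scale, all but C4b, and so were 57.5% of all genes. Relative to the median there, the 9 members ran from 0.52 for C4b to 2.62 for Cfb. The 5 averaged genotype differences stood at 0.85 (C1qa), 0.97 (C1qb), 0.70 (C1qc), 1.14 (Cfb) and 0.66 (C3ar1) relative to that median.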

How the data were processed

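Polyadenylated pancreas RNA was sequenced in 24 libraries. The tools named, per the submitters' processing notes, are Cuffnorm, Cufflinks 2.0.2, CASAVA 1.8 and Bowtie, with build mm9 and no roles or order. The authors deposited FPKM per Ensembl gene. The unit was inferred from Cuffnorm and the values. How libraries were scaled is not given in the sources used here, nor is the annotation, and depth is unknown.

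Groups came from the labels. Nothing pairs animals. Genes at or above 1 FPKM in 3 or more libraries were tested on log2(FPKM + 1) with limma 3.58.1 (R 4.3.3), 1 mean per group, 16 residual degrees of freedom, trend and robust moderation, and Benjamini-Hochberg adjustment over the genes of each of 15 contrasts. Zeros in all libraries of a group were treated as missing where another group reached 100 FPKM in each library (27 genes, no member). The fit was tested on simulated data. All 9 members, and listed genes called between genotypes or needed for a result, were named. Members and lists were chosen with earlier results of these data known. The alternatives were pseudocount, filters, scaling, zeros, spread, moderation and leaving out each library. Promoters are from RefSeq (GRCm38.p6). Python 3.11.15 and matplotlib 3.10.9 were used.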

Additional observations from a re-analysis of the deposited data

How the results depend on the processing

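Of 71 member results followed, 35 were called, and 24 of these kept their call under each of the 8 settings that leave no library out and 24 without any 1 library. Over those settings 536 of 568 values kept their direction and call, 24 lost the call, 4 gained it and 4 changed sign. Counts of called members moved by over 1.5 times as follows. In saline the 1 called became 2 with a pseudocount of 0.1 or a 5 FPKM filter, and 0 with no filter, scaling without enzyme and Reg genes, quantile normalization or the spread of the compared groups alone. For HET 8 h against saline the 1 became 0 with no filter, enzyme scaling or the compared groups' spread, and 2 with the 5 FPKM filter or quantile normalization. At 48 h the 3 became 1 with no filter and 0 with the compared groups' spread, which also left 2 of 4 for HET 24 h and for WT 48 h against saline. Smaller moves at 48 h were to 2 with a pseudocount of 0.1 or without trend and robust moderation, where C1qa was lost, and to 4 with enzyme scaling or quantile normalization, where C1qc was gained. WT 24 h against saline gave 8 in place of 5 with enzyme scaling. The cause of these moves was not tested.

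Leaving out 1 library gave 0 to 2 called in saline, 0 at 8 h, 0 to 1 at 24 h, 0 to 4 at 48 h and 5 throughout for the mean. Over time the ranges were 4 to 7 (WT 24 h against saline), 1 to 4 (HET), 3 to 4 (WT 48 h against 8 h), 4 (HET), 0 (WT 8 h against saline), 0 to 2 (HET), 3 to 4 (WT 48 h against saline) and 4 to 6 (HET), and for the interactions 0 to 4 (24 h) and 0 (48 h). With enzyme scaling 18 of the 135 member differences over the 15 comparisons changed sign, none of them called on either scale. In the genotype comparisons these were C2 at 8 h (0.060) and on average (0.015), C1qc at 24 h (0.16) and C4b at 48 h (0.22). Over time 11 changed sign, among them C3 (0.12) and C1qc (1.06) in HET from saline to 24 h, and C3 (0.22), Serping1 (0.59) and Cfb (1.04) in HET from saline to 48 h. Without 1 library the genotype differences changed sign at 8 h for C2 (−0.37 to 0.14) and Serping1 (−0.061 to 0.25), at 24 h for C1qa (−0.11 to 0.31), C1qc (−0.13 to 0.23) and Cfb (−0.30 to 0.83), at 48 h for C3 (−0.38 to 0.86), C4b (−0.62 to 0.10) and Serping1 (−0.31 to 0.38), and on average for C4b (−0.036 to 0.28) and Serping1 (−0.066 to 0.16). No paired analysis was possible because nothing pairs the animals. The labels give no replicate numbers, so those used here only tell the libraries of a group apart. Unknown depth leaves counting error unstated, and 3 animals per group limit what could be called.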
